A study of Mus musculus with 9 samples.

Results

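Transcripts of 33 genes for aminoacyl-tRNA synthetases and amino acid supply were followed in mouse primary renal tubular epithelial cells. The members were taken by gene symbol from a table of 31167 genes. They are 20 cytosolic synthetases, 6 amino acid transporters, 2 mitochondrial one-carbon enzymes, 3 proline and alanine enzymes and 2 transsulfuration enzymes. RNA was sequenced in 3 groups of C57BL/6 kidney cells with 3 libraries each. Sham cells were the negative control. H/R cells were kept for 6 h at 1.0% oxygen without glucose, followed by 18 h of reoxygenation in complete medium, a culture model of ischemia and reperfusion. EGR1OV cells had been transfected with a plasmid in which the CMV promoter, which is not specific to tubular cells, drives the transcription factor Egr1. No group was labelled as an empty-plasmid control, so effects of Egr1 and of transfection itself cannot be told apart. The labels do not say whether replicates came from separate cultures or animals, and p-values measure only the spread between these libraries.

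Aminoacyl-tRNA synthetases join each amino acid to its tRNA and so set what the ribosome can use. Transporters bring amino acids across the plasma membrane, and the enzymes followed here make glycine, folate-bound carbon units, proline, alanine and cysteine. Many of these genes are known targets of Atf4, the transcription factor of the integrated stress response, which is made when eIF2alpha is phosphorylated under amino acid shortage, endoplasmic reticulum stress or infection. Atf4 binds a composite element with C/EBP partners. Proximal tubule cells reabsorb filtered amino acids and release some of them to the blood.

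A promoter window from 250 bases before to 50 bases after the RefSeq start was found for 23 of the 33 members (GRCm38.p6). The letters TGATGNAA, the core of the Atf4 composite element, were sought on either strand. They occurred in 7 of the 23 members (30.4%) and in 1219 of 27025 genes with a window (4.51%). For each of the 7 members 1 match is printed, because it is the sequence by which Atf4 is known to reach genes of this kind; the shares are a description without a test. Each reads 5′ to 3′ along the strand of its gene, and the capitals mark the match.
Aars, chr8:111033840-111033869, plus strand: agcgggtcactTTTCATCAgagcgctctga
Gars, chr6:55037960-55037989, plus strand: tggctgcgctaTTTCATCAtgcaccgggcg
Iars, chr13:49682126-49682155, plus strand: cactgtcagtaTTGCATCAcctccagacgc
Tars, chr15:11399655-11399684, minus strand: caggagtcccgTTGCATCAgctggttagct
Yars, chr4:129189895-129189924, plus strand: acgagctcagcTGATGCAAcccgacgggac
Slc1a4, chr11:20332699-20332728, minus strand: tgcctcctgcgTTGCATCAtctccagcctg
Pycr1, chr11:120643833-120643862, minus strand: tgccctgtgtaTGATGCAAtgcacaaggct

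The match of Pycr1 lay 103 bases before the start, while those of Gars, Tars and Slc1a4 lay 30, 15 and 4 bases before. The matches in Iars and Yars and that shown for Aars lay 8, 4 and 10 bases after the start. The letters GCGNGGGCG of an EGR1 site occurred on either strand in 2 of the 23 members (8.7%) and in 6.27% of all genes with a window. These members were Aldh18a1 and Slc38a2, and the stretch before the start of Slc38a2 is printed because its transcript fell in EGR1OV. That stretch was thus picked by a change in these same data, and an effect of Egr1 through it was not tested. It covers chr15:96699729-96699978 on the minus strand, with a GC content of 72%, and the capitals mark the match 45 bases before the start.
Slc38a2: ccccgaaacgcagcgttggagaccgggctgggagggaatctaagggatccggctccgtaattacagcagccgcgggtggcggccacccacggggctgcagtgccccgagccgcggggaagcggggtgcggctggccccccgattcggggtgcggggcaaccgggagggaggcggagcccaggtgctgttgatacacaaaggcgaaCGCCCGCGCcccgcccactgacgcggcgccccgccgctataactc

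A second match in Slc38a2 began 37 bases after the start. The letters GAAA, then any 2 bases, then GAAA, are the core of an interferon-stimulated response element. They occurred in 1 member, Qars, and in 3.99% of all genes with a window. No member held matches to more than 1 of the 3 elements. A match is a run of letters and was not tested for binding.

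Recovered depth was 16183617 to 18384022 reads per library, and each value of a member rested on 54 to 15362 reads. Values are FPKM, a fragment count divided by exon length and library size, so levels of different genes are compared per length. Egr1 itself was at 6.09 to 6.91 FPKM in Sham, 40.1 to 45.7 in EGR1OV and 7.48 to 8.57 after H/R, so the plasmid group carried the excess that its label states. Of the tubule markers, Epcam, Cdh1, Krt8 and Krt18 were abundant, while Umod was listed at 0 in every library and the means of Slc34a1 and Slc12a3 did not pass 0.0209 FPKM in any group. Other RNA moved with the groups as well. All 22 interferon response genes were called higher in EGR1OV against Sham, led by Isg15, Ifit1, Irf7 and Ifit3, and their summed level was 91.2 to 116 FPKM in Sham, 4185 to 4304 in EGR1OV and 98.2 to 102 after H/R. Of 11 leukocyte markers tested, 9 were called lower in EGR1OV, led by Lyz2, C1qa, C1qc and C1qb, and 1, Cd14, higher. The summed level of that list was 161 to 168 FPKM in Sham, 47.4 to 55.6 in EGR1OV and 138 to 148 after H/R. The summed tubule markers were at 2013 to 2051 FPKM in Sham, 1868 to 1952 in H/R and 1312 to 1422 in EGR1OV. They did not all fall. Of 11 tested, 5 were called lower in EGR1OV, among them Lrp2, Krt19, Aqp1 and Krt18, and 1 higher. Of all genes, 6.51% were called lower and 9.87% higher. At an adjusted p under 0.05 in limma, 6 of the 11 were lower and 4 higher. Endothelial markers summed to 10.4 to 10.9 FPKM in Sham, 10.6 to 10.8 in H/R and 7.30 to 7.89 in EGR1OV. Fibroblast markers summed to 36.5 to 38.4 FPKM in Sham, 44.4 to 45.1 in H/R and 41.5 to 46.1 in EGR1OV. Pecam1 was called lower and Col1a2 higher in EGR1OV. After H/R the calls in these lists were Cxcl10, Gbp2, Epcam, Col1a2, Col1a1 and Postn higher and Adgre1 and Lyz2 lower. The part of these shifts in the changes below was not tested. In bulk RNA, fewer cells of a type and less RNA per cell cannot be told apart.

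All 33 members were expressed in Sham, over a 359-fold range of mean level with a median of 30.8 FPKM. Nars, the asparaginyl synthetase, was the highest at 201 ± 1.46 FPKM (means are given ± SD, n = 3), and Cbs, the first enzyme of transsulfuration, the lowest at 0.559 ± 0.0966. Gars, the glycyl synthetase, followed Nars at 95.3 ± 1.37 FPKM, and Slc38a2, a sodium-coupled transporter of small neutral amino acids, came next at 87.0 ± 1.97. Among synthetases the lowest was Farsa, the catalytic subunit of the phenylalanyl enzyme, at 13.5 ± 0.556 FPKM, below its partner subunit Farsb at 24.5 ± 0.975. In this order, 21 of the 32 pairs of neighbours did not overlap between the Sham libraries. The neighbours that did overlap included Iars and Rars, and a run from Hars to Mthfd2 at 36.1 to 30.8 FPKM that also held Tars, Slc7a5, Wars, Kars and Shmt2. Replicates lay close together, with a median coefficient of variation over the members of 1.83% in Sham, 3.09% in EGR1OV and 2.95% after H/R.

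**Figure D1:**
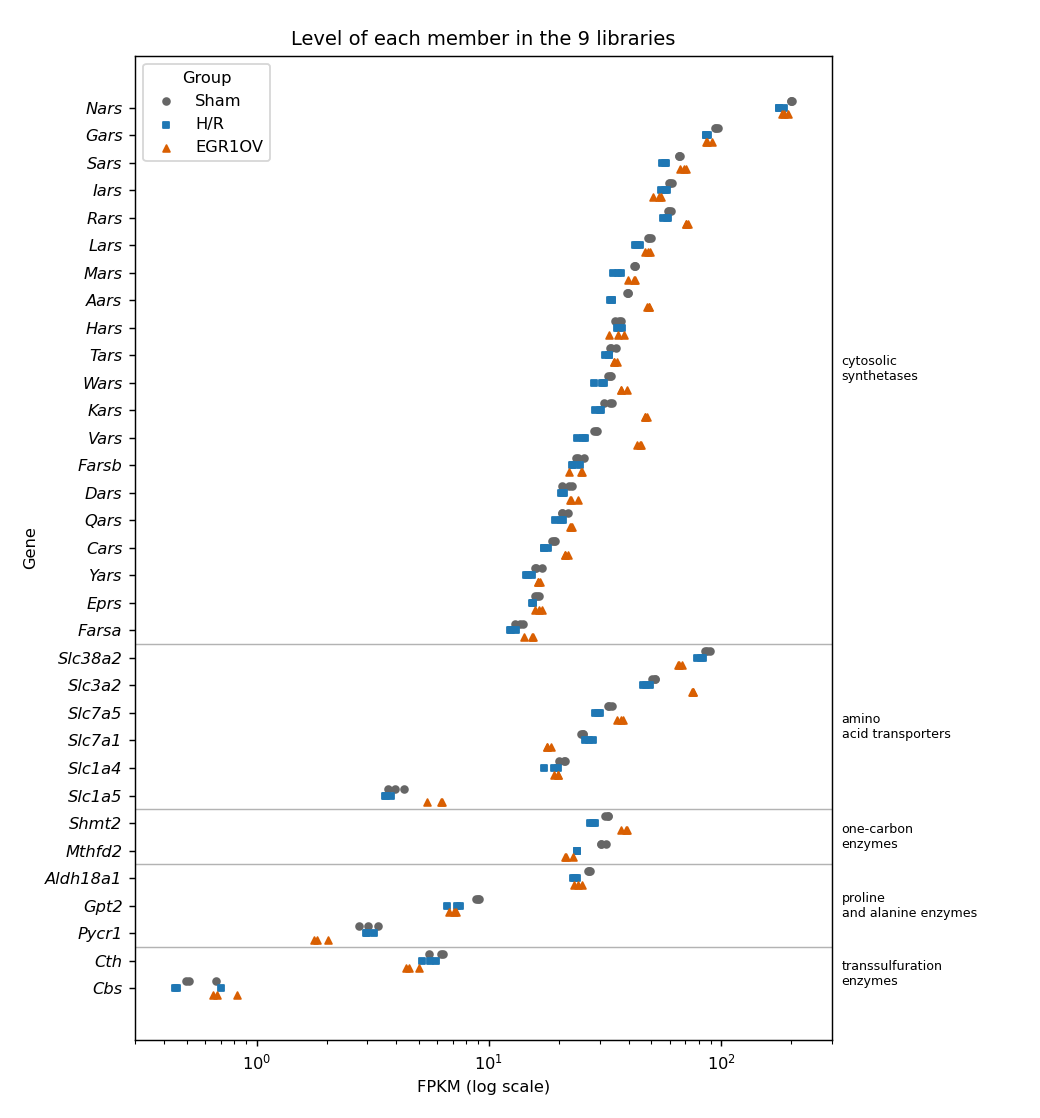
Level of each of the 33 members in the 9 libraries, on a log scale of FPKM, ordered by Sham level within each role. Circles are Sham, squares H/R and triangles EGR1OV, with 3 libraries each. Nars lies at the top near 201 FPKM and Cbs at the bottom near 0.559 FPKM in Sham, and the triangles stand to the right of the other symbols for Vars, Kars, Aars and Slc3a2.

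Transfection with the Egr1 plasmid moved the members both ways. To be called, a gene had to change by 1.3-fold or more on the log2(FPKM + 1) scale with an adjusted p under 0.05 in limma, taken over 13985 genes. All adjusted p below are from that test. Of the 33 members, 8 were called against Sham (24.2%), beside 16.4% of all genes tested, with 4 higher (9.87% of all genes) and 4 lower (6.51%). The risers were the synthetases Vars and Kars and the transporter genes Slc3a2 and Slc1a5, and the members that fell were Slc7a1, Slc38a2, Mthfd2 and Pycr1. With no fold limit, 11 members were higher and 10 lower, beside 26.1% and 19.8% of all genes. The 3 EGR1OV libraries all lay above the 3 Sham libraries for 13 members and all below for 11, beside 31% and 24.6% of all genes. For a single member with such groups the exact two-sided permutation p is 0.1, the smallest that 3 against 3 allows. Their log2 change was above 0 for 18 and below 0 for 15, beside 53.2% and 46.8% of all genes. The median change of the members was +0.02 beside +0.02 for all genes. It was -0.01 beside -0.0049 with median-ratio scaling and -0.08 beside -0.05 with quantile normalization. No common direction is therefore stated for the members.

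H/R gave smaller changes that lay mostly below 0. Of the 33 members, 30 had a log2 change below 0 and 3 above, beside 59.9% and 40.1% of all genes. At an adjusted p under 0.05, 15 members were lower and none higher, beside 7.54% and 4.15% of all genes. In either direction 21 had an unadjusted p under 0.05, beside 3920 of 13985 genes. Median-ratio scaling and limma voom on recovered reads each gave 1 member, Slc7a1, as higher. The 3 H/R libraries all lay below the 3 Sham libraries for 22 members, beside 21.8% of all genes, and all above for 1, beside 11.8%. The limit for a call was 1.2-fold here, and 2 members were called, Mthfd2 and Gpt2, both lower (6.06%), beside 4.25% of all genes, with 2.65% of all genes lower and 1.6% higher. The median change of the members was -0.12 beside -0.03 for all genes. With median-ratio scaling 29 members were below 0 at a median of -0.08, and with quantile normalization 29 at a median of -0.10. The median of all genes was then +0.0030 and -0.00052.

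**Figure D2:**
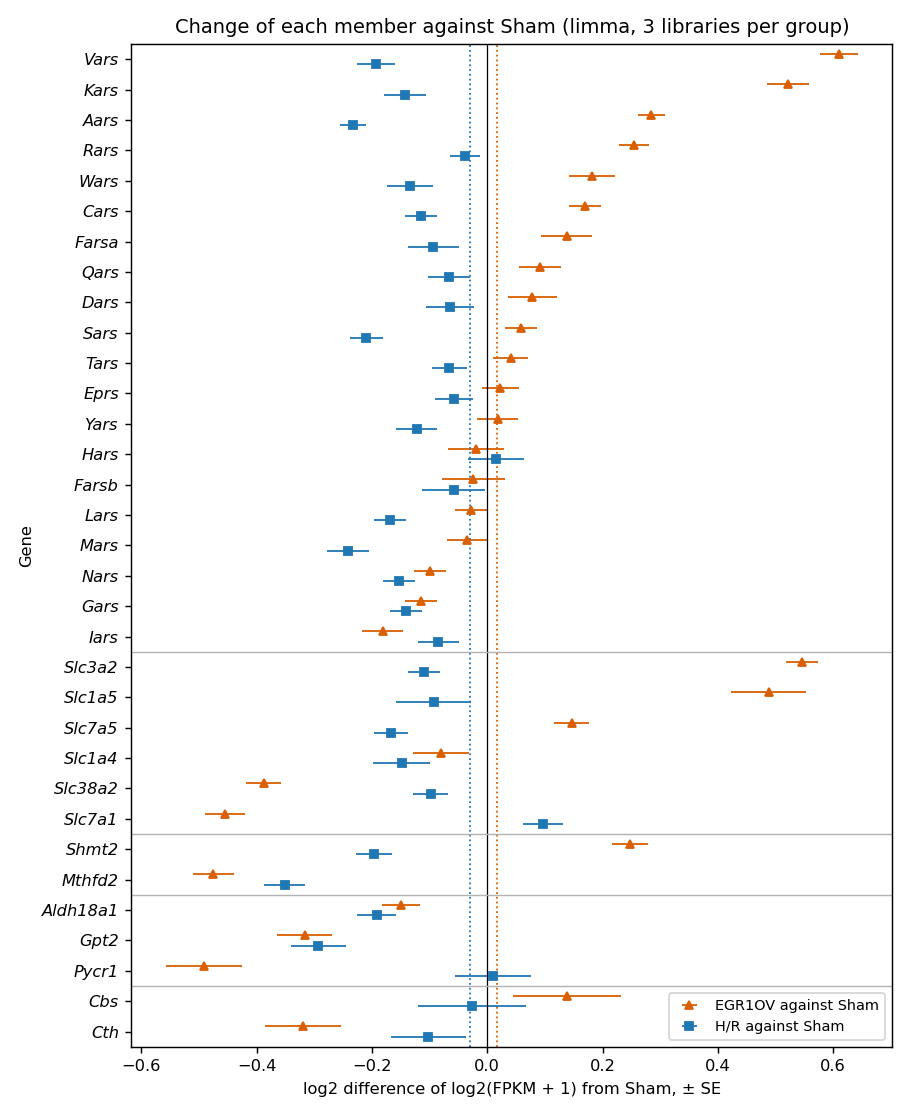
Log2 change of each member against Sham with its standard error, by role and then by the change in EGR1OV (triangles) beside that after H/R (squares). Dotted lines mark the median of all genes, +0.02 in EGR1OV and -0.03 after H/R. For 30 of the 33 members the squares lie below 0, while the triangles run from -0.49 for Pycr1 to +0.61 for Vars.

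Vars, the valyl-tRNA synthetase, showed the largest change of any member against Sham on the log2(FPKM + 1) scale, while Pycr1 changed more by ratio of means. It was at 28.2, 29.0 and 29.1 FPKM for the Sham libraries, 24.0, 25.8 and 25.3 for those of H/R and 44.8, 45.2 and 43.4 for those of EGR1OV. The 3 groups did not overlap, with H/R lowest and EGR1OV highest. The change in EGR1OV was +0.61 (SE 0.033, adjusted p 4.8e-07), a ratio of means of 1.54. After H/R it was -0.19 (SE 0.033, adjusted p 0.0076), which is below the 1.2-fold limit.

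Kars, the lysyl-tRNA synthetase, is a subunit of the multisynthetase complex. It was at 33.2, 34.0 and 31.2 FPKM for the Sham libraries, 29.95, 30.4 and 28.6 for those of H/R and 47.2, 48.2 and 47.2 for those of EGR1OV. Here too EGR1OV was above both other groups, and all H/R libraries were below all Sham libraries. Against Sham its log2 change was +0.52 with the plasmid (SE 0.036, adjusted p 3.07e-06) and -0.14 after H/R (adjusted p 0.0376).

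Aars, the alanyl-tRNA synthetase, moved the same way with a smaller rise. Its levels were 39.4, 39.8 and 39.8 FPKM for the Sham libraries, 33.2, 33.8 and 33.8 for those of H/R and 47.7, 49.0 and 48.8 for those of EGR1OV. The groups were well apart, yet neither change against Sham reached its fold limit. Against Sham its log2 change was +0.28 with the plasmid (SE 0.023, adjusted p 7.63e-06) and -0.23 after H/R (adjusted p 0.000605). Aars shares 1326 exon bases with Exosc6 on the same strand, so reads there could belong to either gene. No level of Exosc6 was found among the deposited values, so its part in the Aars level cannot be checked.

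For the other 17 synthetases no change against Sham was called. In EGR1OV, Rars (+0.25), Wars (+0.18), Cars (+0.17) and Farsa (+0.14) were higher at an adjusted p under 0.05, and Iars (-0.18), Gars (-0.12) and Nars (-0.10) lower. Wars, the tryptophanyl synthetase, is known to be induced by interferon, and its mean went from 33.1 ± 0.438 FPKM in Sham to 37.7 ± 1.32 in EGR1OV, 13.9% higher. The remaining 10 had changes from -0.03 to +0.09, with Mars, Lars, Farsb and Hars below 0 and Yars, Eprs, Tars, Sars, Dars and Qars above 0, signs that scaling turned for Yars, Eprs, Tars, Dars and Qars.

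After H/R the synthetases lay mostly on the same side. Of the 20, 19 were below 0, 9 were lower at an adjusted p under 0.05 and none was higher, beside the shares of all genes given above. The 9 were Mars (-0.24), Aars, Sars (-0.21), Vars, Lars (-0.17), Nars (-0.15), Kars, Gars (-0.14) and Cars (-0.12). Summed over the 20 genes, the level was 905 to 915 FPKM in Sham, 938 to 959 in EGR1OV and 818 to 841 after H/R. The 3 groups did not overlap in this sum of values as deposited. In EGR1OV against Sham the median change of the 20 was +0.05 as deposited and +0.02 with median-ratio scaling. It was -0.03 with quantile normalization, with 8 above 0 and 12 below. The median of all genes was +0.02, -0.0049 and -0.05 in the same order, each below that of the 20. The sign thus depended on the scaling, and no common rise in EGR1OV is stated. The number lower after H/R was 6 with median-ratio scaling and 7 with quantile normalization. Hars, the histidyl synthetase, was not below 0, at 36.1 ± 1.12 FPKM in Sham and 36.5 ± 0.911 in H/R.

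Reads of some synthetases can be shared with neighbours, and the strand setting of the count is not given in the sources used here. Mars shares 68 exon bases with Ddit3 on the opposite strand, a gene that reached 68.5 FPKM in EGR1OV. Farsb shares 248 with Sgpp2, Hars 195 with Hars2, and Yars 30 with C77080, all on the opposite strand. The Iars transcript is 96.01% identical over 1656 bases to Gm4849, which did not pass 0.136 FPKM.

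Of the 20 synthetases, 8 belong to the multisynthetase complex (Eprs, Iars, Lars, Qars, Mars, Kars, Rars and Dars). Their median change in EGR1OV was +0.05, the same as for the other 12 synthetases. After H/R it was -0.08 for the complex and -0.13 for the others. The 3 scaffold genes of the complex, Aimp1, Aimp2 and Eef1e1, had no adjusted p under 0.05 in any comparison with limma on the deposited values. In EGR1OV against Sham 1 had an unadjusted p under 0.05, beside 7349 of 13985 genes. At an adjusted p under 0.05, 1 scaffold gene was lower in EGR1OV than in Sham with median-ratio scaling, 2 with quantile normalization and 1 with voom. Against H/R these numbers were 1, 2 and 2.

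**Figure D3:**
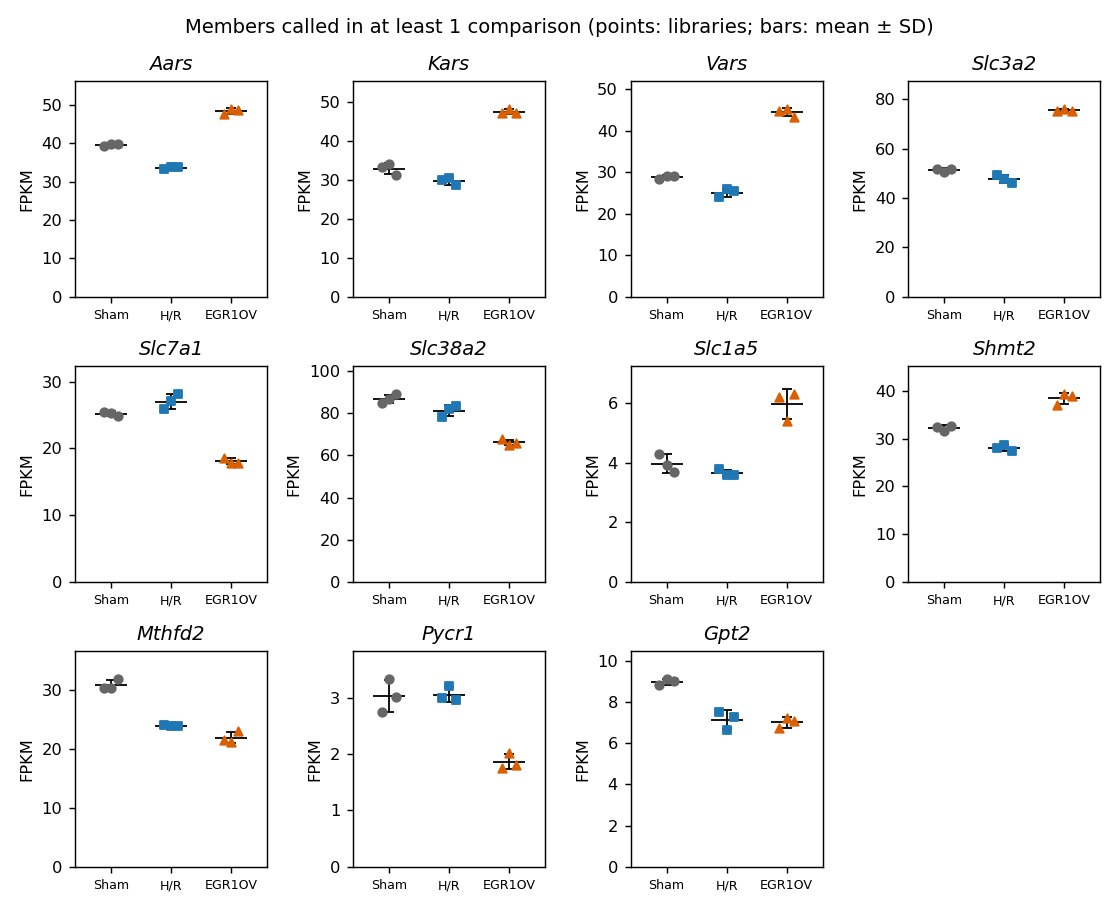
FPKM of the 11 members called in at least 1 comparison, with a point for each library and a bar for the mean ± SD of 3 libraries. Vars, Kars, Slc3a2 and Slc1a5 are highest in EGR1OV, Slc7a1, Slc38a2 and Pycr1 are lowest there, and Mthfd2 and Gpt2 are below Sham in both treated groups.

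The transporters split. Slc3a2 encodes the heavy chain that carries several light chain transporters to the cell surface. It was at 51.8, 50.6 and 51.7 FPKM for the Sham libraries, 49.1, 47.6 and 45.9 for those of H/R and 75.3, 76.0 and 75.1 for those of EGR1OV. EGR1OV stood well above both other groups. The change was +0.55 in EGR1OV (SE 0.028, adjusted p 3.33e-07), a ratio of means of 1.47, and -0.11 after H/R (SE 0.028, adjusted p 0.0367).

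Its light chain Slc7a5, which carries large neutral amino acids such as leucine, went from 33.1 ± 0.608 FPKM in Sham to 36.8 ± 1.05 in EGR1OV. That is a change of +0.15, below the fold limit (adjusted p 0.00342), and after H/R the change was -0.17 (adjusted p 0.0103). The other light chains are no members and are named for their role. Slc7a11, the cystine and glutamate exchanger, rose from 1.55 ± 0.157 to 6.15 ± 0.909 FPKM in EGR1OV (log2 +1.48, adjusted p 1.29e-06). Slc7a8, a carrier of neutral amino acids, fell from 1.24 ± 0.0661 to 0.670 ± 0.0617 FPKM (log2 -0.42, adjusted p 0.00102). Slc7a6 and Slc7a7 had changes of +0.03 and -0.14 with an adjusted p above 0.05.

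Slc1a5 is a sodium-dependent exchanger of glutamine and other neutral amino acids. It was at 4.30, 3.93 and 3.67 FPKM for the Sham libraries, 3.78, 3.58 and 3.59 for those of H/R and 6.22, 5.40 and 6.29 for those of EGR1OV. Sham and H/R overlapped and EGR1OV was above both. The change in EGR1OV was +0.49 (SE 0.065, adjusted p 0.000242). Its relative Slc1a4 had a level of 20.8 ± 0.667 FPKM in Sham, 19.6 ± 0.486 in EGR1OV and 18.7 ± 1.33 after H/R, with no adjusted p under 0.05.

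Slc7a1 is the main carrier of arginine and lysine in many cells. It was at 25.4, 25.3 and 24.8 FPKM for the Sham libraries, 25.9, 27.0 and 28.1 for those of H/R and 18.6, 17.8 and 17.9 for those of EGR1OV. It was the member whose 3 H/R libraries all lay above Sham, by +0.10 (SE 0.034, adjusted p 0.105). In EGR1OV the change was -0.46 (SE 0.034, adjusted p 5.17e-06), a ratio of means of 0.719.

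Slc38a2, whose promoter is printed above, was at 85.2, 86.8 and 89.1 FPKM for the Sham libraries, 78.4, 81.9 and 83.4 for those of H/R and 67.7, 65.2 and 65.9 for those of EGR1OV. The 3 groups did not overlap, with EGR1OV lowest. The change was -0.39 in EGR1OV (SE 0.030, adjusted p 6.81e-06), just past the 1.3-fold limit. It was below that limit without Sham replicate 3 (-0.37), without EGR1OV replicate 2 (-0.38) and with Gm23935 as a covariate (-0.38). After H/R the change was -0.10 (SE 0.030, adjusted p 0.0691).

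Summed over the 6 transporter genes, the level was 220 to 223 FPKM in Sham, 221 to 223 in EGR1OV and 205 to 210 after H/R. The sums in EGR1OV overlapped those in Sham, while every sum in H/R was below them.

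The mitochondrial one-carbon enzymes moved apart in EGR1OV and together after H/R. Mthfd2 oxidizes the carbon unit carried by folate in mitochondria. It was at 30.3, 30.3 and 31.8 FPKM for the Sham libraries, 24.0, 23.9 and 23.8 for those of H/R and 21.5, 21.2 and 23.0 for those of EGR1OV. All libraries of both treated groups were below all Sham libraries. It fell by 0.48 on the log2 scale in EGR1OV (SE 0.035, adjusted p 4.56e-06) and by 0.35 after H/R (SE 0.035, adjusted p 0.000705).

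Shmt2 makes glycine from serine in mitochondria. Its levels were 32.5, 31.6 and 32.6 FPKM for the Sham libraries, 28.0, 28.7 and 27.3 for those of H/R and 37.1, 39.3 and 39.0 for those of EGR1OV. The 3 groups did not overlap, with Sham between the others. Against Sham its log2 change was +0.25 with the plasmid (SE 0.031, adjusted p 0.000164) and -0.20 after H/R (adjusted p 0.00595), both below the fold limits.

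Of the proline and alanine enzymes, 3 of 3 were lower in EGR1OV at an adjusted p under 0.05 and 1 was called, beside 19.8% and 6.51% of all genes. Pycr1, which makes proline in mitochondria, was at 2.75, 3.32 and 3.02 FPKM for the Sham libraries, 3.00, 3.21 and 2.95 for those of H/R and 1.76, 2.02 and 1.81 for those of EGR1OV. These values rest on 115 to 232 reads. Sham and H/R overlapped and EGR1OV was below both, by -0.49 against Sham (SE 0.066, adjusted p 0.000249), a ratio of means of 0.615.

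Gpt2, the mitochondrial alanine aminotransferase, was at 8.80, 9.10 and 9.02 FPKM for the Sham libraries, 7.52, 6.63 and 7.29 for those of H/R and 6.72, 7.21 and 7.10 for those of EGR1OV. Both treated groups lay below Sham and overlapped each other. The change after H/R was -0.29 (SE 0.048, adjusted p 0.00657), which is past 1.2-fold. That limit was missed under median-ratio scaling (-0.26), under quantile normalization (-0.26) and without H/R replicate 2 (-0.25). In EGR1OV the change was -0.32 (SE 0.048, adjusted p 0.000513), which is below 1.3-fold. Quantile normalization gave -0.41 and voom -0.39, both past that limit.

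Aldh18a1, which starts proline synthesis from glutamate, went from 27.0 ± 0.353 FPKM in Sham to 23.5 ± 0.454 in H/R and 24.2 ± 1.00 in EGR1OV. The changes were -0.19 and -0.15, with adjusted p of 0.00874 and 0.00535. Of the transsulfuration enzymes, Cth, which makes cysteine, was at 6.03 ± 0.433 FPKM in Sham, 4.63 ± 0.327 in EGR1OV and 5.55 ± 0.381 after H/R. Its change in EGR1OV was -0.32 (adjusted p 0.00332), below the fold limit except after quantile normalization (-0.40) and with voom (-0.41). Cbs overlapped between all groups at 0.444 to 0.824 FPKM and 54 to 101 reads, and no difference was detectable at that depth.

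The direct comparison of EGR1OV with H/R tests whether the changes against Sham differed, since both share the Sham libraries. Of the 33 members, 8 were called at 1.3-fold, 6 higher and 2 lower, beside 18.9% of all genes, 11.9% higher and 6.94% lower. Those higher in EGR1OV were Vars (+0.80), Kars (+0.66), Slc3a2 (+0.66), Slc1a5 (+0.58), Aars (+0.52) and Shmt2 (+0.44). Those lower were Slc7a1 (-0.55) and Pycr1 (-0.50). The largest, Vars, had a mean 77.4% above that in H/R (adjusted p 6.35e-08). The call of Shmt2 ended with median-ratio scaling (+0.38) and with quantile normalization (+0.36). For Gpt2 the difference was -0.02 (SE 0.048, adjusted p 0.707), and for Mthfd2 it was -0.12 (SE 0.035, adjusted p 0.0156).

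With no fold limit, 24 members passed, beside 51% of all genes, 18 higher in EGR1OV than in H/R and 6 lower, beside 32% and 19%. The difference was above 0 for 25 members and below 0 for 8, beside 58.6% and 41.4% of all genes. The 6 became 3 without EGR1OV replicate 1, without EGR1OV replicate 2 or with Gm23935 as a covariate. Synthetases made up 14 of the 18, and Iars, at -0.10, was the synthetase among the 6 lower. The number of synthetases higher was 9 with median-ratio scaling, 8 with quantile normalization and 10 with voom. The median difference of the 33 members was +0.14 beside +0.05 for all genes. It was +0.07 with median-ratio scaling and +0.03 with quantile normalization, where the median of all genes was 0.00044 and -0.04.

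Genes of the same pathway outside the member list were taken from lists. None of the 20 genes listed as mitochondrial synthetases was called against Sham by limma. That list also holds Gatb, Gatc and Qrsl1, which are amidotransferase subunits and not synthetases. At an unadjusted p under 0.05 there were 7 of the 20 in EGR1OV and 5 after H/R, beside 7349 and 3920 of 13985 genes. In EGR1OV 3 were higher and 2 lower at an adjusted p under 0.05, beside 26.1% and 19.8% of all genes, and after H/R there was none, with a median of -0.06. Sars2, which rests on 114 to 213 reads, was called between EGR1OV and H/R (+0.48, adjusted p 0.00178). With quantile normalization no gene of the list was called in that comparison. In it, voom also gave 2 called lower and the replicate number as a block 1. Lars2 ran from 5.23 to 45.8 FPKM within groups, and was high in the 4 libraries, Sham 3, H/R 2, H/R 3 and EGR1OV 3, in which the noncoding Gm23935 was also high. With log2 Gm23935 as a covariate, members called against Sham numbered 4 higher and 3 lower in EGR1OV and 2 lower after H/R.

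Of the 17 integrated stress response regulators, 6 were called higher in EGR1OV and 7 lower after H/R, with none the other way, beside 9.87% of all genes called higher in EGR1OV and 2.65% called lower after H/R. The largest in EGR1OV on the log2(FPKM + 1) scale were Eif2ak2 (+2.15), the double-stranded RNA sensor kinase PKR, Cebpb (+1.92), Nupr1 (+1.73) and Ddit3 (+1.48). By ratio of means Cebpb rose more, at 5.07 beside 4.75 for Eif2ak2. After H/R the largest were Trib3 (-0.56), Atf3 (-0.42), Nupr1 (-0.40) and Ddit3 (-0.32). The number called lower after H/R was 5 with median-ratio scaling, and quantile normalization gave 1 called lower in EGR1OV. Between EGR1OV and H/R, 8 were called higher, beside 11.9% of all genes. The largest on the log2(FPKM + 1) scale were Eif2ak2 (+2.30), Nupr1 (+2.12), Cebpb (+1.90) and Ddit3 (+1.80). Atf4 itself was at 186 ± 4.16 FPKM in Sham, 184 ± 3.28 in EGR1OV and 165 ± 2.15 after H/R. The change was -0.02 in EGR1OV (adjusted p 0.641) and -0.17 after H/R (adjusted p 0.00438). Atf4 is known to be controlled largely at translation, which RNA levels do not show.

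Of 26 other enzymes of amino acid and folate metabolism tested, 3 were called lower after H/R, beside 2.65% of all genes. These were the 3 enzymes of serine synthesis, Psph (-0.35), Phgdh (-0.35) and Psat1 (-0.33). Phgdh, its first enzyme, was at 84.1 ± 2.42 FPKM in Sham, 84.2 ± 2.95 in EGR1OV and 65.8 ± 0.490 after H/R. Psat1 was at 21.4 ± 0.277, 18.7 ± 0.802 and 16.9 ± 0.718 FPKM in the same order, a change of -0.19 in EGR1OV (adjusted p 0.00398). Asns, the asparagine synthetase, was at 70.3 ± 0.590 FPKM in Sham, 62.6 ± 1.58 in EGR1OV and 62.9 ± 0.820 after H/R. It changed by -0.16 after H/R (adjusted p 0.0058) and by -0.17 in EGR1OV (adjusted p 0.000522), both below the fold limits. In EGR1OV 3 other enzymes were called higher and 2 lower, beside 9.87% and 6.51% of all genes, among them Glul (-0.73), which makes glutamine, Ass1 (+0.56) and Aldh1l1 (+0.43). Of 14 other amino acid transporters tested, 3 were called higher and 2 lower in EGR1OV, beside the same shares of all genes. On the log2(FPKM + 1) scale the largest were Slc7a11, Slc16a10 (+0.49), Slc7a3 (-0.49) and Slc6a9 (+0.46). By ratio of means Slc7a8 fell more than Slc7a3, at 0.541 beside 0.592. After H/R 1 of the 14, Slc7a3, was called, at -0.33. Between EGR1OV and H/R called differences in these lists included Slc7a11 (+1.5), Slc6a9 (+0.74), Slc16a10 (+0.61) and Slc7a8 (-0.43) among transporters and Glul (-0.70), Ass1 (+0.42) and Shmt1 (+0.40) among enzymes.

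**Figure D4:**
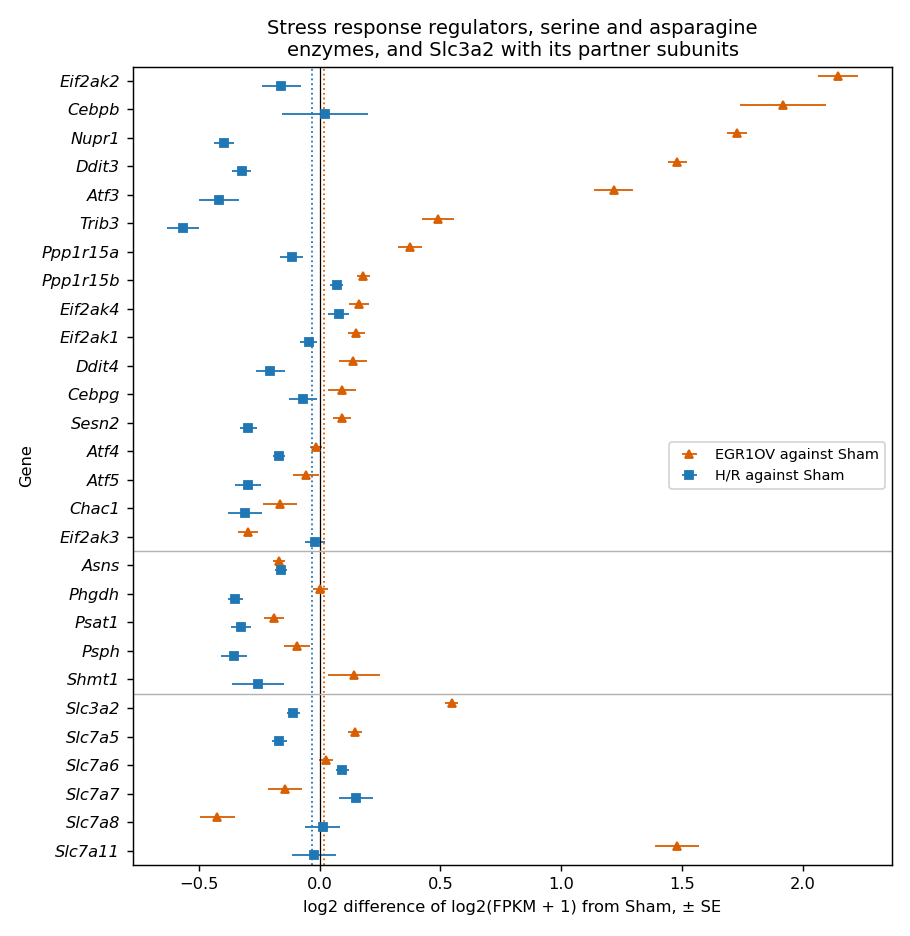
Log2 change against Sham with its standard error for 17 integrated stress response regulators, 5 serine and asparagine enzymes, and Slc3a2 with 5 light chains. Triangles are EGR1OV and squares H/R, and dotted lines are the medians of all genes. Eif2ak2 reaches +2.15 in EGR1OV, Slc7a11 +1.48, and Trib3 lies at -0.56 after H/R, while Atf4 lies near 0 in EGR1OV.

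The 7 members with a match to the Atf4 element did not share a direction in EGR1OV. After H/R their median was -0.12 (7 members), beside -0.10 for 16 members with a window and no match and -0.13 for 10 without a window. In EGR1OV the medians were -0.08, +0.04 and +0.16. Within the 7, Aars rose by 0.28 and Pycr1 fell by 0.49 in EGR1OV, so members with these letters lay on both sides of Sham.

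**Figure D5:**
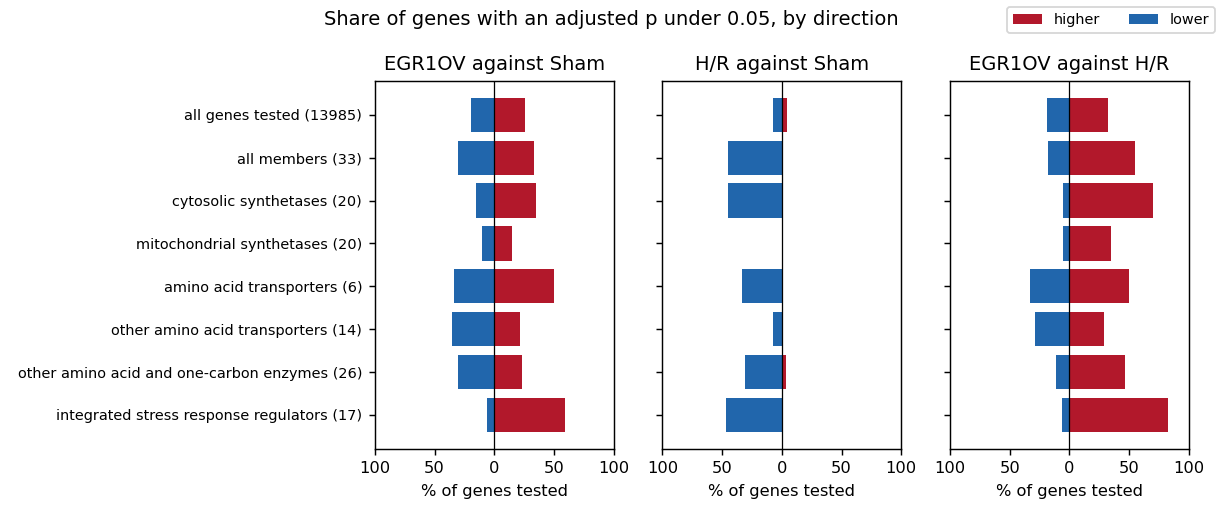
Percent of the genes tested in each list that had an adjusted p under 0.05, to the right where higher and to the left where lower, in the 3 comparisons. After H/R the bars of the members, the synthetases and the stress response regulators lie to the left, and all genes tested show 7.54% lower and 4.15% higher. In EGR1OV against H/R, 18 of 33 members lie to the right.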

How the data were processed

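The labels give 3 groups (Sham, H/R, EGR1OV) with replicate numbers 1 to 3 in the titles. The authors deposited a single FPKM table with a column per library. The submitters' processing notes name HISAT2 2.1.0, Bowtie2 2.2.3, TopHat2 and mm9, with no role, but 94.8% of gene positions equal GENCODE M21 (GRCm38). The counter is not given in the sources used here. With M21 exon lengths, 98.74% of 154344 values of 1 to 1000 reads came out whole within 0.02 reads, which gave the depth of each library. Depth bears on counting error only, since reads lack molecular identifiers.

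Genes were tested as log2(FPKM + 1) where their mean over 9 libraries reached 0.5 FPKM, a scale that understates the change of low genes. limma (3.58.1, R 4.3.3, eBayes with trend) was fitted on the 9 libraries together. Tests were two-sided, and p-values were adjusted by Benjamini-Hochberg over 13985 genes. The limits of 1.3-fold and 1.2-fold against Sham are the study's, while the 1.3-fold limit between EGR1OV and H/R was set for this work. The fit was tested on simulated data. The members and lists were chosen with earlier results of these data known. Every member called in a comparison is given by library. Up to 4 called genes per comparison come from each other list, and Atf4, Asns, Phgdh, Psat1 and Egr1 are named whatever their values. A gene and a promoter match are not reported here. Promoters are from RefSeq (GRCm38.p6). Alternatives included 0.1 as the pseudocount, no filter, a mean of 5 FPKM, other scalings, a replicate block, no variance trend, only the groups compared, voom on recovered reads, other fold limits and each library left out. The Gm23935 covariate and counts by adjusted p alone were added after seeing the data. Tables and figures were made in Python 3.11.15 (pandas 2.3.3, numpy 2.4.6, matplotlib 3.10.9, scipy 1.17.1).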

Additional observations from a re-analysis of the deposited data

How the results depend on the processing

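Of the changes of single members, 1814 values kept their direction and side of the limits under the alternatives, 8 fell short of a limit, 5 newly passed one and 45 changed sign. Other filters, the replicate block, no variance trend and only the groups compared leave a log2 change as it is. So does leaving out a library of the group not compared. The 1814 thus include values whose direction could not change. With a mean of at least 5 FPKM, 1315, 372 and 1520 genes were called in EGR1OV against Sham, H/R against Sham and EGR1OV against H/R. With no fold limit the counts were 6417, 1635 and 7135 genes and 21, 15 and 24 members. At 2-fold they were 484, 11 and 489 genes and 0 members each in limma. With an unadjusted p under 0.05 there were 22, 21 and 25 members, beside 7349, 3920 and 7906 of 13985 genes. After H/R, 1 member was called with median-ratio scaling or quantile normalization, and 1 was higher at an adjusted p under 0.05 with median-ratio scaling and with voom. Members lower in EGR1OV than in H/R at an adjusted p under 0.05 numbered 3 with Gm23935 as a covariate, and 3 to 6 with 1 library left out (3 without EGR1OV replicate 1 or 2). Of genes called, 60.3%, 37.7% and 63.2% were higher in the 3 comparisons as deposited, 54.9%, 58.2% and 51.0% with median-ratio scaling and 45.9%, 56.5% and 42.5% with quantile normalization.

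The members that changed sign lay near 0, and the cause was not tested. For EGR1OV against Sham, quantile normalization gave log2 changes of -0.0093 for Dars, -0.083 for Eprs, -0.0026 for Qars, -0.042 for Tars and -0.089 for Yars. Median-ratio scaling gave -0.0054 for Eprs and -0.010 for Yars, voom -0.0059 and -0.011, and the covariate +0.00037 for Farsb. For H/R against Sham, Rars was at +0.0020 with median-ratio scaling and +0.0013 with voom, Cbs at +0.0094 with quantile normalization and Hars at -0.0073 with the covariate. For EGR1OV against H/R, median-ratio scaling gave -0.034 for Farsb, -0.044 for Gars, -0.017 for Nars and -0.026 for Aldh18a1, and voom -0.036, -0.044, -0.016 and -0.027. Quantile normalization gave -0.044 for Eprs, -0.059 for Farsb, -0.056 for Gars, -0.037 for Slc1a4 and -0.054 for Aldh18a1, and the covariate +0.0050 for Hars. With 1 library left out in turn, EGR1OV against Sham ran from -0.0017 to 0.048 for Eprs, -0.055 to 0.035 for Farsb, -0.066 to 0.034 for Hars and -0.0015 to 0.048 for Yars. H/R against Sham ran from -0.0082 to 0.035 for Hars, -0.041 to 0.062 for Pycr1 and -0.10 to 0.024 for Cbs. EGR1OV against H/R ran from -0.00032 to 0.044 for Gars, -0.081 to 0.019 for Hars and -0.070 to 0.0093 for Gpt2.

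Libraries with equal numbers did not deviate together, with correlations of -0.195 to 0.263 over 9 pairs, 2 of them above 0.1, and 5 of 18 best matches fell on the own number. With the replicate number as a block, 8, 2 and 8 members were called, and 11 higher and 10 lower, 13 lower, and 18 higher and 5 lower had an adjusted p under 0.05.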

Other observations

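Mat2a, which makes S-adenosylmethionine from methionine and belongs to the other enzymes of amino acid metabolism, varied within groups. It was at 14.4, 7.42 and 14.2 FPKM in Sham, at 7.73, 12.3 and 10.5 in H/R and at 7.49, 10.3 and 10.4 in EGR1OV. The groups overlapped, and no comparison had an adjusted p under 0.05 (limma).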
